A study of Arabidopsis thaliana with 24 samples.

Results

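How the root and shoot of Arabidopsis thaliana parted in their response to 3 h of osmotic shock is described here. The comparison rests on the 12 libraries of root and shoot in water and at PEG 3 h, with 3 libraries in each of 4 groups, of 24 libraries in all. Each gene was scored by its root response (root PEG 3 h over root water) minus its shoot response (shoot PEG 3 h over shoot water), on the log2 scale. This value is called the difference below. It is "higher" where the root moved up more, or down less, than the shoot, and "lower" in the reverse case.

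All 4 groups were wild type (WT) seedlings of the ecotype Columbia-0, 7 days old, grown on agar medium with sucrose under long days. PEG is polyethylene glycol of average molecular weight 8000, given as a 30% aqueous solution with an osmotic pressure of -2.0 MPa. It draws water from the seedling while the polymer itself is too large to enter cells readily. Each biological replicate pooled 30 to 50 seedlings, whose roots and shoots were separated after the treatment. The water groups were sampled after 1 h in water, so 3 h of PEG and 3 h of immersion cannot be told apart here. The PEG samples with histidine or SHAM are not analysed here. RNA was read by MARS-seq, which counts tags from the 3' ends of transcripts.

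When the water potential around a seedling drops, its cells lose water. The labels give roots and shoots alike as exposed to the PEG solution. Water moves between cells through aquaporins, channel proteins of the plasma membrane (PIP) and of the vacuole (TIP). The hormone abscisic acid (ABA) binds receptors of the PYR/PYL family, which then inhibit clade A protein phosphatases (PP2C) and release kinases that switch on protective genes such as RD29A and the dehydrins. DREB factors switch on many of the same genes through the dehydration response element. The circadian clock, heat shock chaperones and ribosome production also take part in the wider response to stress.

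The 12 libraries held 2519830 to 5495746 counts over 18240 listed genes. The tissue labels fitted the defining markers: in water, 41 of 41 nuclear photosynthesis genes were lower in root than in shoot, and 9 of 9 root tissue markers and 12 of 12 root hair genes were higher. Photosynthesis transcripts made up 0.182% to 0.230% of root water counts, 0.204% to 0.337% of root PEG 3 h counts, 24.6% to 25.9% of shoot water counts and 21.2% to 23.0% of shoot PEG 3 h counts. Root tissue markers made up 0.0830% to 0.0909% of root water counts and 0.0419% to 0.0440% of root PEG 3 h counts, and root hair genes 0.0840% to 0.0876% and 0.00943% to 0.0120%. The part of these shifts in the root falls below was not tested. The library codes in the labels carry a digit that runs with the groups: 4 in shoot water, 5 in root water and in shoot PEG 3 h, and 6 in root PEG 3 h. The labels do not say what the digit stands for. These are bulk samples, so fewer cells of a type and less RNA per cell cannot be told apart.

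Of 15472 genes tested, 2599 (16.8%) differed between the organs in their response by the quasi-likelihood test of edgeR, at a Benjamini-Hochberg adjusted p below 0.05, which gave all p-values printed here. The difference was higher for 1558 genes (10.1%) and lower for 1041 (6.73%). Over all genes tested, the median difference was 0.16, the median root response 0.17 and the median shoot response 0.0044. In the 5682 genes with a mean of at least 10 counts per 1000000 (CPM) in each organ, in water or at PEG 3 h, 1632 (28.7%) were called, 839 (14.8%) higher and 793 (14%) lower. Among all tested genes the root response was called for 2454 rises (15.9%) and 1854 falls (12%), and the shoot response for 2036 rises (13.2%) and 1684 falls (10.9%).

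In 775 of the 1558 higher genes the root level rose and the shoot response was not called, and in 446 the shoot level fell and the root response was not called. Among the 1041 lower genes, 396 rose in the shoot with no call in the root and 372 fell in the root with no call in the shoot. Calls in opposite directions were rarer: 295 genes (1.91%), of which 155 (1.0%) rose in root and fell in shoot and 140 (0.905%) did the reverse. Of the 793 lower genes at 10 CPM in both organs, 707 stood higher in root than in shoot in water, and in 617 (77.8%) the organs' mean levels were closer together at PEG 3 h than in water. The same was so for 377 of the 839 higher genes (44.9%). Over all called genes, whatever their level, it was so for 762 of 1041 lower genes (73.2%) and 956 of 1558 higher genes (61.4%). The calls and these levels come from the same values. For a gene higher in root in water, a lower difference itself brings the organs closer unless their levels cross. These counts are therefore a description and were given no test.

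When the digit of the library code was added to the fit, 427 genes were called, 209 higher and 218 lower. The digit varies within a group in root PEG 1 h and shoot PEG 2 h alone. The term is therefore estimated from those groups, which lie outside the comparison, and calls kept or lost with it below depend on them. Leaving out 1 of the root water libraries, or shoot water replicate 3, left 620 to 643 lower genes in place of 1041, and leaving out shoot water replicate 1 left 187 opposite calls in place of 295.

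**Figure D1:**
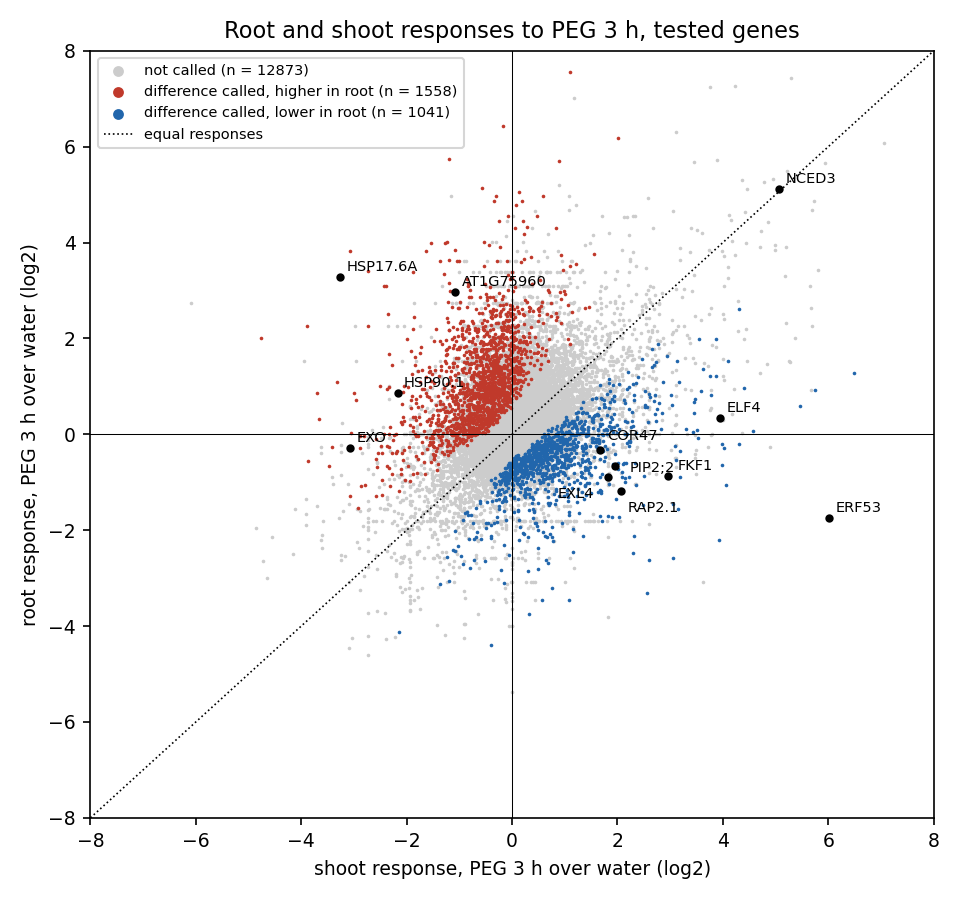
Root response against shoot response (PEG 3 h over water, log2) for the tested genes, with called differences coloured. Genes above the dotted line responded more upward in the root. FKF1, PIP2;2, RAP2.1 and ERF53 sit at the lower right (shoot up, root level or down), EXO and the heat shock genes at the upper or middle left, and NCED3 lies on the line of equal responses.

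Most aquaporins fell in the root, rose in the shoot, or both. Of 19 listed genes, all of which passed the filter on low counts, 12 had a lower and 2 a higher difference, against 6.73% and 10.1% of all genes tested. In the root 11 members fell and 3 rose, in the shoot 11 rose and 3 fell, and 6 were called in opposite directions in the organs. The median root response was -1.01 and the median shoot response 0.50. The median difference was -1.21, beside 0.16 over all genes tested. In the 16 members at 10 CPM in both organs, 11 were lower and 2 higher, beside 14% and 14.8% of all such genes.

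PIP2;2, a plasma membrane water channel, had 1476, 1308 and 1467 CPM in the root water libraries and 915, 948 and 816 at PEG 3 h. In the shoot it had 68.2, 73.0 and 85.5 CPM in water and 281, 284 and 310 at PEG 3 h. The groups did not overlap in either organ, and the root, which stood far above the shoot in water, lost ground while the shoot gained. The root response was -0.67 and the shoot response 1.95, which gave a difference of -2.61 ± 0.24 (SE, adjusted p = 4.4e-09). PIP2;3, a near-identical neighbour of PIP2;2 in the genome, had a difference of -2.73, and reads of the pair could be split between them by the authors' counting.

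PIP1;1, another plasma membrane channel, had 1375, 1296 and 1578 CPM in root water and 584, 596 and 530 at PEG 3 h, with 220, 261 and 243 CPM in shoot water and 388, 370 and 407 at PEG 3 h. Again no groups overlapped, and the root level came down to less than its lowest water library in each PEG library. The difference was -2.00 ± 0.19 (adjusted p = 7.1e-09). TIP2;2, a vacuolar channel, had a root response of -1.43 and a shoot response of 0.50, with a difference of -1.93 (adjusted p = 4.0e-08).

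TIP1;1, a vacuolar channel and the most abundant of those named in root water at 4938, 4995 and 5044 CPM, held 2203, 2115 and 1964 at PEG 3 h. In the shoot it had 660, 537 and 615 CPM in water and 756, 689 and 804 at PEG 3 h, where the response of 0.31 was not called (adjusted p = 0.11). Its difference was -1.56 (adjusted p = 2.1e-06).

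The 2 members that went the other way were PIP2;7 and PIP2;8, chosen for mention after their values were seen. PIP2;7 had 23.4, 21.1 and 14.7 CPM in root water and 34.3, 43.9 and 34.7 at PEG 3 h, and in the shoot 514, 477 and 486 CPM in water and 368, 342 and 329 at PEG 3 h. It was thus a shoot-abundant gene that rose in the root, by 0.93, and fell in the shoot, by 0.51. The difference was 1.44 ± 0.29 (adjusted p = 0.00082). PIP2;8 had a difference of 1.38 (adjusted p = 0.015), with a highest adjusted p of 0.073 when 1 library was left out (shoot water replicate 1). With the code digit fitted, 8 members were lower and 0 higher, and PIP2;7 had 0.29 (adjusted p = 0.85). PIP2;2, PIP1;1, TIP2;2 and TIP1;1 kept their calls in that fit and every other alternative.

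The EXORDIUM family, extracellular proteins associated with growth and brassinosteroid response, split in opposite ways. Of 5 genes, all at 10 CPM in both organs, 3 had a higher difference and 1 a lower, beside 14.8% and 14% of all such genes. EXO had 546, 460 and 371 CPM in root water and 461, 340 and 329 at PEG 3 h, against 330, 472 and 302 in shoot water and 40.8, 44.1 and 46.1 at PEG 3 h. The root groups overlapped, whereas in the shoot every PEG library lay far below every water library. The shoot response was -3.07 and the root response -0.29 (adjusted p = 0.28), with a difference of 2.79 ± 0.28 (adjusted p = 4.3e-08).

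EXL3 and EXL1 had the same form, with shoot responses of -1.84 and -1.67 and root responses of 0.01 and 0.06, neither of them called. EXL4 was the mirror image. It had 705, 713 and 751 CPM in root water and 361, 446 and 358 at PEG 3 h, and 147, 146 and 150 CPM in shoot water and 506, 469 and 584 at PEG 3 h. No groups overlapped, and the difference was -2.71 ± 0.23 (adjusted p = 8.8e-10). EXO, EXL3 and EXL4 kept their calls with the code digit fitted.

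**Figure D2:**
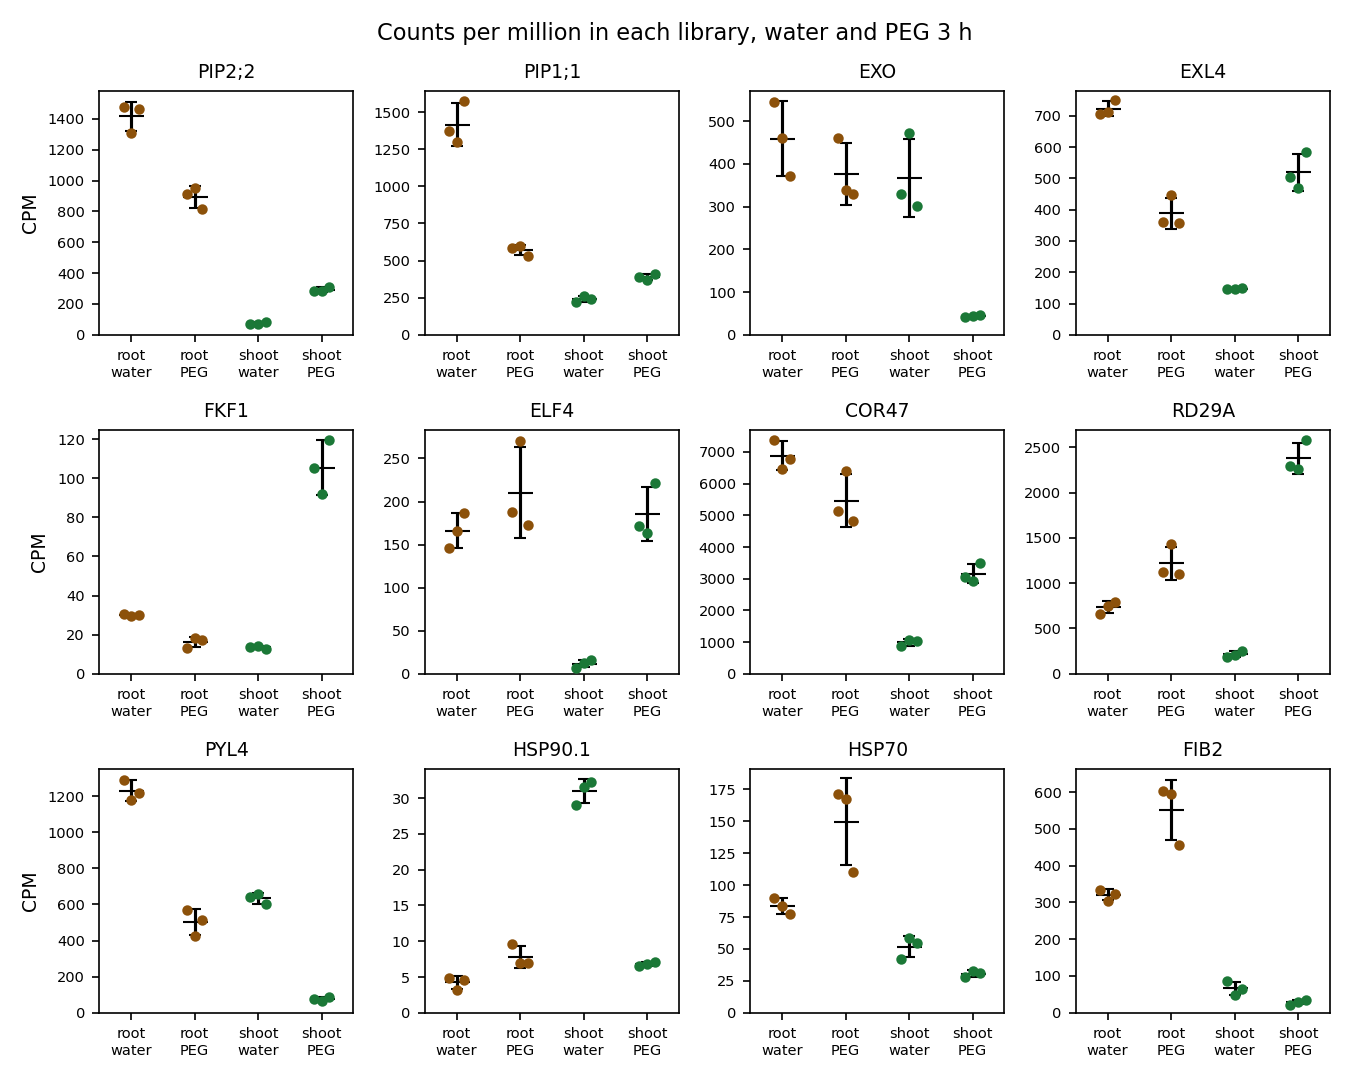
CPM in each of the 12 libraries for 12 genes, with points for libraries and a bar for the mean ± SD of 3. PIP2;2, PIP1;1 and EXL4 fall in root and rise in shoot, EXO falls in shoot only by its calls, FKF1 rises in shoot from 12.7 to 14.2 CPM in water to 91.7 to 120 CPM, and HSP90.1 is high in shoot water alone.

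Most clock and photoperiod genes rose in the shoot, and fewer did in the root. Of 24 listed genes, 22 were tested, and 9 had a lower and 0 a higher difference, against 6.73% and 10.1% of all genes tested, with 13 not called. In the shoot 16 rose and 1 fell, while in the root 4 rose and 3 fell. The median difference was -1.22. Among the 11 at 10 CPM in both organs, 8 were lower, against 14% of all such genes. In 5 of the 22 there were at most 3 counts in all in at least 1 group, and the median without them was also -1.22.

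FKF1 encodes a blue-light receptor with an F-box that times flowering, and it had the lowest adjusted p of the list. It had 30.8, 29.5 and 30.2 CPM in root water and 13.4, 18.2 and 17.4 at PEG 3 h. In the shoot it had 13.9, 14.2 and 12.7 CPM in water and 105, 91.7 and 120 at PEG 3 h. The order of the organs was therefore turned round, from root above shoot in water to shoot above root at PEG 3 h. There was no overlap between the organs in either solution, or between the solutions in either organ. The shoot rose 7.74-fold and the root fell 1.84-fold, for a difference of -3.83 ± 0.23 (adjusted p = 7.4e-14).

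ELF4, a member of the evening complex that represses other clock genes, had 7.11, 12.5 and 16.1 CPM in shoot water and 171, 163 and 221 at PEG 3 h. In the root it had 146, 166 and 186 CPM in water and 188, 270 and 173 at PEG 3 h, where the groups overlapped. The shoot thus came up to the level the root already had, and the difference was -3.61 ± 0.61 (adjusted p = 0.00062). LUX, the DNA-binding member of the same complex, rose in both organs, by 0.68 in root and 1.93 in shoot, with a difference of -1.24 (adjusted p = 0.00033).

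GI, which partners FKF1, rose by 1.11 in shoot and fell by 0.51 in root, with a difference of -1.62 (adjusted p = 1.6e-05). TOC1, a repressor of the morning loop, rose by 1.32 in shoot, while its root response of -0.52 was not called (adjusted p = 0.076). Its difference was -1.84 (adjusted p = 9.4e-05). ELF3, PRR5, CDF3 and BOA made up the other 4 of the 9 lower members. FKF1, GI and TOC1 kept their calls with the code digit fitted. ELF4 did not (-4.14, adjusted p = 0.064), nor did LUX (-0.95, adjusted p = 0.26). All seedlings were sampled at hours that the labels do not give, so the time of day at harvest cannot be told apart from the treatment.

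The evening element, to which clock proteins bind, has the core AAATATCT, searched on both strands in the 300 bases upstream of each gene's annotated start (RefSeq annotation of the TAIR10.1 assembly). It was found in 7 of the 22 tested clock genes and in 6.05% of all 15383 such windows. It was in 8.65% of the windows of genes with a lower difference and 5.23% of those with a higher one. The windows of FKF1 and LUX, which hold several matches each, are shown so that the matches can be seen in place. Capitals mark the core, written as AGATATTT where it lies on the other strand. A match is only a match of letters.

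FKF1 upstream window, chr1:25508339-25508638, plus strand: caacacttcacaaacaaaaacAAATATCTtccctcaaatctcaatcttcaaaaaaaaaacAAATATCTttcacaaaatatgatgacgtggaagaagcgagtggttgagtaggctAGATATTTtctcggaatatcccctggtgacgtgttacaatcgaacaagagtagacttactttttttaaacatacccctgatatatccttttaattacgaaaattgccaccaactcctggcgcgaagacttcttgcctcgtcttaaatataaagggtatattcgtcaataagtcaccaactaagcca

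LUX upstream window, chr3:17182742-17183041, plus strand: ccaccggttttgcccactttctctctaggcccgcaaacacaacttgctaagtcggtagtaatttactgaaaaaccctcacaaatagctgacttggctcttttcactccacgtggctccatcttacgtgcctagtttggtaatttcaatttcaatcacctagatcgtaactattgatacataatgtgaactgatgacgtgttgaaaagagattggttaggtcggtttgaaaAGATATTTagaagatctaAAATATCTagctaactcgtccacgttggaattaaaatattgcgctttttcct

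In the FKF1 window the cores start 279, 240 and 186 bases before the annotated start, and in the LUX window 70 and 52 bases before it. The 7 DREB and CBF genes that held this core, of 11, are counted with their family.

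Dehydrins and cold or desiccation proteins (the RD29, COR and LEA genes) rose throughout in the shoot and in a minority in the root. All 14 listed genes passed the filter, 7 had a lower and 0 a higher difference, against 6.73% and 10.1% of all genes tested, and the median difference was -1.94. In the shoot 14 of 14 rose, and in the root 5 rose, 1 fell and 8 were not called. Among the 9 at 10 CPM in both organs, 7 were lower, against 14% of all such genes. COR15A and COR15B, close copies of each other, had SEs of 3.45 and 6.68 on their differences, which are not read here.

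COR47, a dehydrin that protects membranes, was already abundant in root water, with 7384, 6474 and 6794 CPM, and had 5136, 6407 and 4834 at PEG 3 h. In the shoot it had 875, 1069 and 1021 CPM in water and 3051, 2933 and 3489 at PEG 3 h. The groups did not overlap in either organ, with the root PEG libraries below the root water ones. The root response of -0.33 was not called (adjusted p = 0.27), while the shoot level rose 3.19-fold without reaching that of the root. The difference was -2.01 ± 0.31 (adjusted p = 5.2e-05), and COR47 kept its call with the code digit fitted (adjusted p = 0.046).

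The dehydrins ERD14 and ERD10 also had lower differences, of -1.40 (adjusted p = 7.9e-05) and -1.87 (adjusted p = 0.0082), the latter call being lost when root and shoot libraries of 1 treatment and letter were fitted as a block, by pool of seedlings (adjusted p = 0.075). XERO2, a further dehydrin, had 66.3, 90.7 and 94.1 CPM in shoot water and 307, 408 and 424 at PEG 3 h, and its root response of 0.25 was not called (adjusted p = 0.65). Its difference was -1.93 (adjusted p = 0.015), a call also lost with the block by pool (adjusted p = 0.096).

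RD29A, a standard reporter of dehydration, had 663, 745 and 797 CPM in root water and 1127, 1431 and 1098 at PEG 3 h, against 183, 212 and 247 in shoot water and 2294, 2266 and 2578 at PEG 3 h. The root groups did not overlap, but the root response of 0.73 was not called (adjusted p = 0.34), whereas the shoot rose 11.1-fold. The difference of -2.74 ± 0.76 had an adjusted p of 0.021. It was above the threshold with the block by pool (adjusted p = 0.091), without shoot water replicate 1 (adjusted p = 0.054) and without root PEG 3 h replicate 3 (adjusted p = 0.051). RD29B, its neighbour, had a difference of -1.94 that was not called (adjusted p = 0.23).

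The dehydration response element that DREB factors bind has the core CCGAC. It was in 8 of the 14 upstream windows of this list, in 15.3% of all windows, in 17.5% of those of lower genes and in 15.6% of those of higher genes. The RD29A window is shown because it holds 3 cores, in capitals, starting 140, 90 and 33 bases before the annotated start. The ABA response element core ACGTG was in 26.6% of all windows, in 33.6% of those of lower genes and in 24.3% of those of higher genes.

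RD29A upstream window, chr5:21240417-21240716, plus strand: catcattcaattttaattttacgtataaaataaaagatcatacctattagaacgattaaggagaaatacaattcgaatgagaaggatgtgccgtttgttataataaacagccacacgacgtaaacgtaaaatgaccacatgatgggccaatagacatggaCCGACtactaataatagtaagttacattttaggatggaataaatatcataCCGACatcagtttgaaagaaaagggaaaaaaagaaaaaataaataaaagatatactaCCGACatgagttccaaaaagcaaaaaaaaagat

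The DREB and CBF factors mostly rose in both organs. Of 11, 4 had a lower and 0 a higher difference, beside 6.73% and 10.1% of all genes tested. All 11 passed the filter, 7 rose and 1 fell in root, and 9 rose and 1 fell in shoot. The median difference was 0.66, opposite in sign to the 4 calls. DREB2A, the best known of them, rose by 5.31 in root and 4.36 in shoot, and its difference of 0.96 was not called (adjusted p = 0.45).

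ERF53, a drought-responsive relative of DREB2, was the extreme case. It had 10.4, 7.81 and 9.03 CPM in root water and 1.88, 2.06 and 4.08 at PEG 3 h, but 3.88, 4.64 and 3.17 in shoot water and 261, 252 and 254 at PEG 3 h. The shoot rose 64.8-fold. The root PEG libraries lay below the water ones without overlap, though the root response of -1.74 was not called (adjusted p = 0.077). The difference was -7.76 ± 0.92 (adjusted p = 2.7e-05).

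RAP2.4 rose by 0.81 in root and 2.71 in shoot, with a difference of -1.90 (adjusted p = 3.3e-06). DREB2B and DREB2C had shoot rises of 3.75 and 3.46, with differences of -2.53 and -2.79 (adjusted p = 0.00039 and 0.0016). Of these 4, RAP2.4 alone kept its call with the code digit fitted (adjusted p = 0.034). The evening element core was in 7 of the 11 windows of this list.

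RAP2.1, a repressor of the same family that is not in the list and was named among the largest differences, went in opposite directions. It had 109, 88.0 and 110 CPM in root water and 47.2, 42.0 and 45.7 at PEG 3 h, and 9.70, 13.0 and 14.6 CPM in shoot water and 43.5, 57.9 and 54.9 at PEG 3 h. The organs, far apart in water, ended at overlapping levels. The difference was -3.26 ± 0.32 (adjusted p = 2.3e-08), kept under every alternative.

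In the other stress ERF factors, 16 genes tested, 5 had a lower and 1 a higher difference, beside 6.73% and 10.1% of all genes tested. The median was -0.0037. ORA59, an activator of defensin genes downstream of ethylene and jasmonate, was the higher one. It had 7.63, 11.6 and 9.29 CPM in root water and 31.2, 20.3 and 42.1 at PEG 3 h, and 24.6, 18.6 and 24.7 CPM in shoot water and 14.6, 10.6 and 15.9 at PEG 3 h. It rose in root and fell in shoot with no overlap, and the difference was 2.44 ± 0.35 (adjusted p = 1.1e-05). ABR1, a repressor of ABA responses, did the reverse, with responses of -0.85 in root and 1.01 in shoot and a difference of -1.86 (adjusted p = 0.00011). ERF9 and ERF1B rose in shoot with root responses that were not called, and had differences of -1.24 and -2.44 (adjusted p = 0.0019 and 0.0020).

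In the ABA pathway, the main synthesis gene had no call for the difference, while receptors and phosphatases did. NCED3, the rate-limiting enzyme of ABA synthesis under drought, had 1.09, 0.579 and 1.03 CPM in root water and 31.2, 46.5 and 19.6 at PEG 3 h, and 1.94, 1.74 and 1.27 CPM in shoot water and 59.3, 56.4 and 53.7 at PEG 3 h. It rose steeply in both organs, and the difference was 0.04 ± 0.68 (adjusted p = 0.99). An SE of this size leaves room for a difference of more than 2-fold either way. Of the 9 ABA synthesis and breakdown genes tested, 1 was higher and 0 lower, beside 10.1% and 6.73% of all genes tested. The higher one was ABA1, zeaxanthin epoxidase (1.07, adjusted p = 0.030). That call was lost without root PEG 3 h replicate 2 (0.62, adjusted p = 0.23), shoot water replicate 2 (adjusted p = 0.062) or root water replicate 3 (adjusted p = 0.066).

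Of 9 ABA receptor genes tested of 14 listed, 4 had a higher and 1 a lower difference, beside 10.1% and 6.73% of all genes tested. The median was 0.82. The higher ones fell further in shoot than in root. PYL4 had 1292, 1181 and 1220 CPM in root water and 570, 423 and 516 at PEG 3 h, and 642, 658 and 601 CPM in shoot water and 75.8, 64.8 and 84.7 at PEG 3 h. Both organs came down with no overlap, the shoot 8.44-fold and the root 2.45-fold, and the difference was 1.78 ± 0.35 (adjusted p = 0.0011).

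PYL6 fell 2.92-fold in root and 7.59-fold in shoot, with a difference of 1.38 (adjusted p = 0.0017). PYL1 and PYR1 fell in shoot, by 1.58 and 1.18, with root responses of -0.23 and -0.36 that were not called, and had differences of 1.35 and 0.82 (adjusted p = 0.0036 and 0.024). PYL9, outside the naming rule, was the lower one, with rises of 0.45 in root and 1.26 in shoot and a difference of -0.81 (adjusted p = 0.035). Left-out libraries took the calls of PYR1 (highest adjusted p = 0.074) and PYL9 (0.15), and PYL4 and PYL6 kept theirs with the code digit fitted.

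Clade A PP2C phosphatases, which the ABA receptors inhibit, rose in both organs in 8 of 8 tested genes. For 3 the difference was lower and for 0 higher, beside 6.73% and 10.1% of all genes tested, with a median of -1.08. PP2CA had 84.2, 80.2 and 77.7 CPM in root water and 339, 361 and 262 at PEG 3 h, and 24.2, 18.0 and 19.3 CPM in shoot water and 246, 216 and 254 at PEG 3 h. Neither pair of groups overlapped, and the shoot, lower in water, ended just below the lowest root library. The difference was -1.55 ± 0.35 (adjusted p = 0.0033). ABI1 and ABI2 had differences of -1.21 and -2.26 (adjusted p = 0.022 and 0.042), which went above the threshold when single libraries were left out (highest adjusted p = 0.065 and 0.11). None of the 3 kept its call with the code digit fitted. AT3G05640, a phosphatase 2C family gene outside this clade, named among the largest differences, fell in root by 0.87 and rose in shoot by 2.50, with a difference of -3.37 (adjusted p = 1.5e-06).

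Most heat shock chaperones had a higher difference. Of 13 listed genes 10 were tested, and 9 had a higher difference and 0 a lower, against 10.1% and 6.73% of all genes tested. In root 7 rose and 0 fell, in shoot 5 fell and 0 rose, and 4 of the 10 did both. The median root response was 1.25, the median shoot response -1.07 and the median difference 2.60. Only 2 of the 10 reached 10 CPM in both organs, so most of these values rest on low counts.

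HSP90.1, a cytosolic chaperone, had 4.91, 3.18 and 4.64 CPM in root water and 9.63, 6.94 and 6.94 at PEG 3 h, and 29.1, 31.6 and 32.3 CPM in shoot water and 6.55, 6.87 and 7.08 at PEG 3 h. The shoot came down from several times the root level to that of the root. The difference was 3.04 ± 0.42 (adjusted p = 5.8e-06), and it was the member of the list that kept its call with the code digit fitted (adjusted p = 0.042).

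HSP70, another cytosolic chaperone, had 90.2, 83.6 and 77.7 CPM in root water and 171, 167 and 111 at PEG 3 h, and 42.3, 58.3 and 54.8 CPM in shoot water and 27.7, 32.9 and 31.5 at PEG 3 h. It rose in root and fell in shoot with no overlap, and the difference was 1.59 ± 0.29 (adjusted p = 0.00023). HSP17.6A, a small chaperone, rose by 3.28 in root and fell by 3.26 in shoot, with a difference of 6.54 ± 0.99 (adjusted p = 2.0e-05). It had at most 8.82 CPM in any library, with 0.273, 0.579 and 0.774 in root water and 0.770, 0.245 and 0.244 in shoot PEG 3 h. These are a few counts in each group, so the fitted size is uncertain.

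MBF1C, a coactivator of the heat response, fell by 2.05 in shoot, with a root response of 0.28 that was not called, and had a difference of 2.32 (adjusted p = 0.00026). AT1G07400, an HSP20-like gene outside the list, named among the largest differences, had 30.3, 26.6 and 18.4 CPM in root at PEG 3 h against at most 5.997 in root water, and a difference of 3.05 (adjusted p = 4.1e-06) that was kept under every alternative.

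Of 15 heat shock factors tested, 2 had a higher and 1 a lower difference, beside 10.1% and 6.73% of all genes tested. HSFA2, the chief amplifier of the heat response, had 3 counts in all in root water and 44 at PEG 3 h, and 18 in shoot water and 8 at PEG 3 h, and its difference was called (adjusted p = 0.0016). Its fitted size depends on the small count added before the logarithm and is not given. HSFA3, a target of DREB2 factors, rose in both organs and more in root, with a difference of 1.60 (adjusted p = 0.0050). HSFC1 rose in both and more in shoot, by 2.62 and 4.30, with a difference of -1.68 (adjusted p = 0.016). Its call was lost without shoot water replicate 1 (-1.43, adjusted p = 0.063), and the highest adjusted p over the alternatives other than the digit term was 0.067.

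The core of the heat shock element was searched as GAANNTTC. It was in 3 of the 10 chaperone windows and in 11.1% of all windows, in 11.4% of those of higher genes and in 9.61% of those of lower genes.

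Ribosome biogenesis genes, which make and process ribosomal RNA in the nucleolus, had a higher difference in 11 of 18 tested and a lower one in 0. Beside these stand 10.1% and 6.73% of all genes tested. The median was 1.17. In root 7 rose and 0 fell, in shoot 9 fell and 0 rose, and 3 were called in both. Of the 11 at 10 CPM in both organs, 7 were higher, against 14.8% of all such genes.

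FIB2 encodes fibrillarin, the methyltransferase of box C/D particles. It had 334, 305 and 322 CPM in root water and 604, 594 and 456 at PEG 3 h, and 85.0, 49.6 and 64.9 CPM in shoot water and 22.3, 28.4 and 33.4 at PEG 3 h. The root rose 1.72-fold and the shoot fell 2.34-fold with no overlap, and the difference was 2.01 ± 0.28 (adjusted p = 7.6e-06). FIB1, its close copy, had a difference of 0.25 that was not called.

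CBF5, the pseudouridine synthase of box H/ACA particles and no relative of the cold factors of like name, had 443, 428 and 459 CPM in root water and 532, 450 and 534 at PEG 3 h, where the groups overlapped. In the shoot it had 181, 120 and 154 CPM in water and 68.9, 81.7 and 87.1 at PEG 3 h. Only the shoot response was called, and the difference was 1.12 ± 0.21 (adjusted p = 0.00038). NOP58-2, a core protein of the box C/D particle, rose by 0.98 in root and fell by 0.61 in shoot, with a difference of 1.58 (adjusted p = 1.0e-04). WDR12, of the large subunit processing machinery, had a difference of 1.83 (adjusted p = 0.0019).

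FIB2, CBF5 and NOP58-2 kept their calls with the code digit fitted. AT5G66540, annotated as a U3 small nucleolar ribonucleoprotein and named among the opposite calls, had 7.63, 8.97 and 8.00 CPM in root water and 19.0, 22.7 and 27.4 at PEG 3 h, and 18.4, 14.5 and 17.4 CPM in shoot water and 6.93, 8.58 and 7.32 at PEG 3 h. The organs changed places without overlap, and the difference was 2.61 ± 0.38 (adjusted p = 1.1e-05).

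Site II elements, short motifs in promoters of ribosomal and nucleolar genes, were searched as TGGGCC or TGGGCT. They were in 12 of the 18 windows of this list and in 24.5% of all windows, in 31.1% of those of higher genes and in 16.9% of those of lower genes. The CBF5 window is shown with its matches in capitals, which read AGCCCA because they lie on the other strand, starting 73 and 42 bases before the annotated start.

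CBF5 upstream window, chr3:21156076-21156375, minus strand: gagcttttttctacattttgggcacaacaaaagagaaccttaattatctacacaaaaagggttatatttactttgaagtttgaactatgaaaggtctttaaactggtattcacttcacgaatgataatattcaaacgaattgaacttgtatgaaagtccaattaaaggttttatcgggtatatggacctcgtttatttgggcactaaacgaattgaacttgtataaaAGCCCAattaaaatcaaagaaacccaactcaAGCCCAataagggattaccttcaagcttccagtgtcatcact

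**Figure D3:**
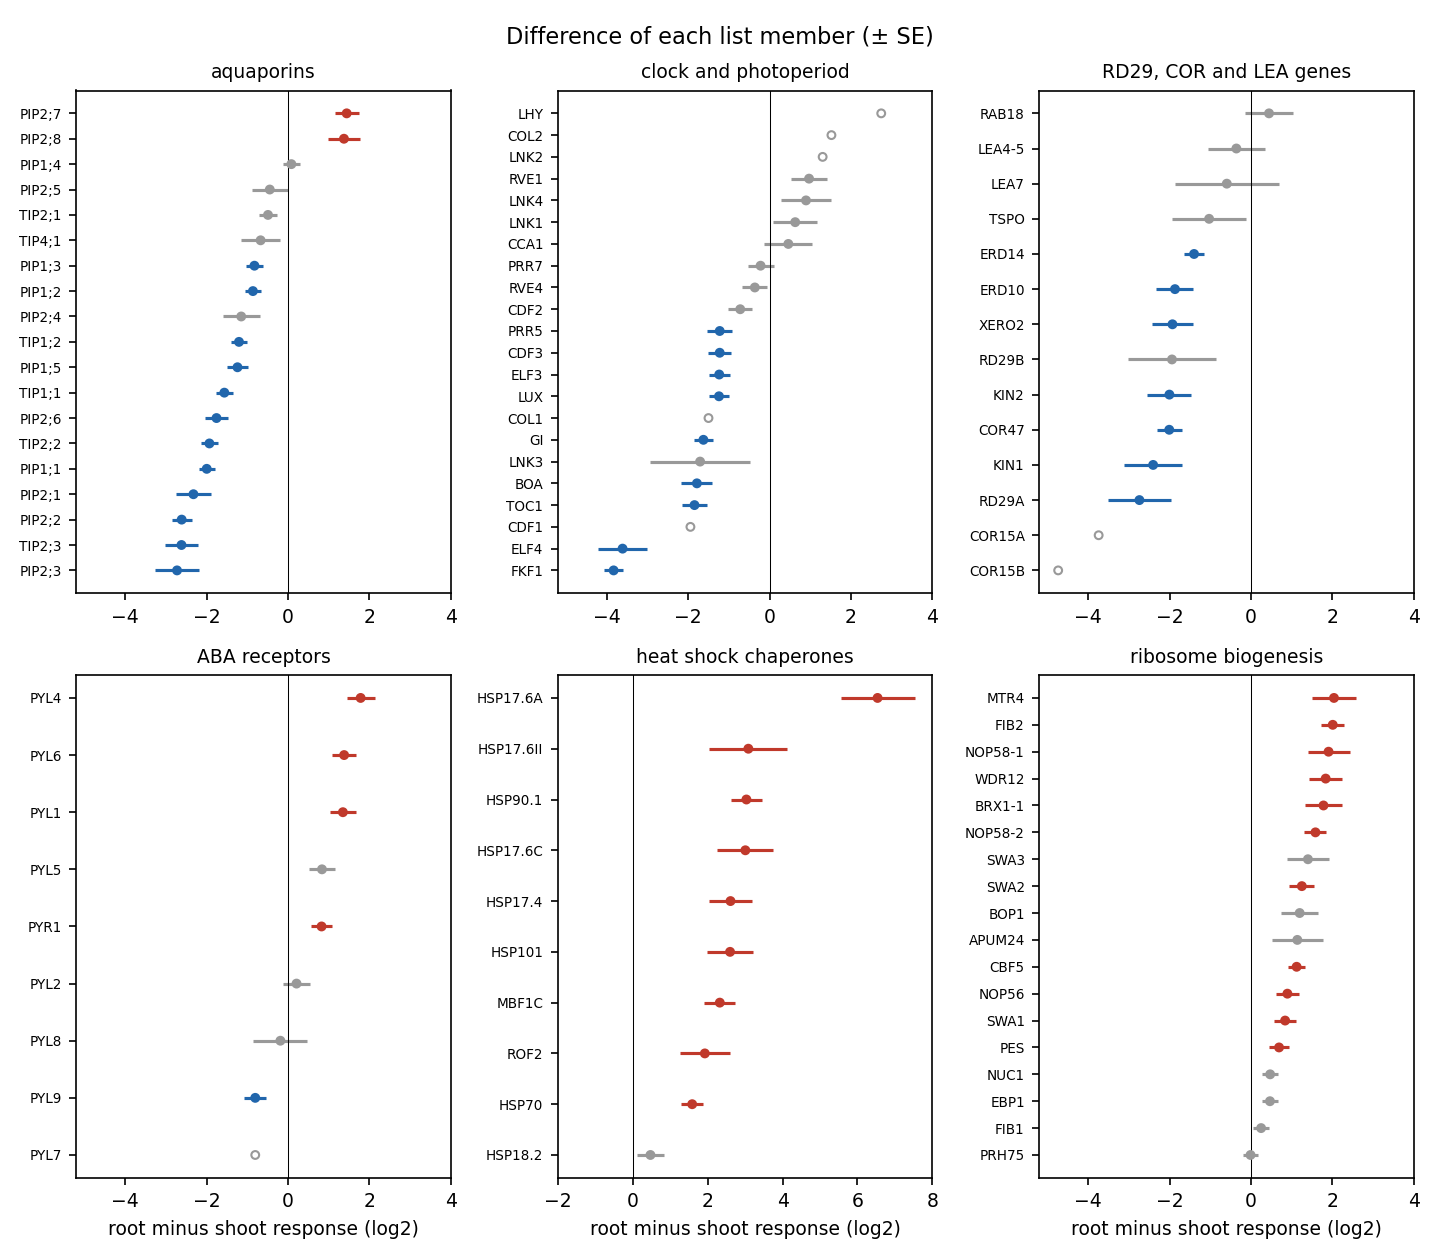
Difference (root minus shoot response, log2) ± SE for each tested member of 6 lists, red where called higher, blue where called lower and grey where not called. Open points have an SE of 2 or more or at most 3 counts in all in 1 group and carry no bar. The plot shows 12 of 19 aquaporins called to the left and 9 of 10 chaperones to the right.

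Among growth and hormone genes, auxin response and transport had 5 higher and 2 lower of 16 tested, beside 10.1% and 6.73% of all genes tested. The median was 0.50. PIN3 and PIN4, auxin efflux carriers, rose in root only by their calls. PIN3 had 22.9, 24.6 and 17.3 CPM in root water and 66.5, 71.3 and 68.0 at PEG 3 h, and 30.4, 26.9 and 26.3 CPM in shoot water and 39.3, 31.9 and 29.3 at PEG 3 h. Root groups were apart and shoot groups overlapped, and the difference was 1.42 ± 0.30 (adjusted p = 0.0011). PIN4 had a difference of 1.20 (adjusted p = 0.0030) and IAA19, an auxin-induced repressor, 1.50 (adjusted p = 0.0053).

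GH3.3, which conjugates auxin to amino acids, had 3 counts in all in root water and 69 at PEG 3 h, with 186 and 154 in the shoot, and its difference was called (adjusted p = 6.3e-05). Of 23 xyloglucan endotransglucosylases and expansins, which loosen cell walls, 3 were higher and 1 lower, a share near the 16.8% called over all genes. XTH23 fell by 1.94 in shoot and its root response of 0.19 was not called, with a difference of 2.13 (adjusted p = 0.00020). In the ethylene synthesis list, 2 were higher and 1 lower of 9, beside 10.1% and 6.73% of all genes tested.

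Of 18 nutrient genes tested, 3 were higher and 5 lower, beside 10.1% and 6.73% of all genes, and 13 fell in root against 7 in shoot. NIA2, the main nitrate reductase, had 564, 552 and 459 CPM in root water and 441, 524 and 372 at PEG 3 h, and 740, 817 and 680 CPM in shoot water and 2170, 2019 and 2054 at PEG 3 h. The root groups overlapped and the shoot rose 2.79-fold, and the difference was -1.72 ± 0.23 (adjusted p = 3.7e-06). NIA1, the other nitrate reductase, had a difference of -1.20 (adjusted p = 0.0014). The ammonium transporters AMT1;1 and AMT1;2 fell in root, by 1.12 and 0.85, and had differences of -1.04 and -2.34 (adjusted p = 0.0017 and 0.00096), with AMT1;2 rising by 1.50 in shoot.

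The higher nutrient genes, named outside the rule, were the ferritins FER1 and FER3, which store iron in plastids, and the phosphate transporter PHT1;4. FER1 had 400, 423 and 484 CPM in root water and 1122, 1307 and 1142 at PEG 3 h, and 258, 299 and 188 CPM in shoot water and 328, 331 and 342 at PEG 3 h. The root rose 2.73-fold, and the shoot response of 0.42 was not called (adjusted p = 0.076). The difference was 1.02 (adjusted p = 0.0038), and those of FER3 and PHT1;4 were 1.71 and 1.31 (adjusted p = 0.0018 and 0.010). PHT1;4 fell in both organs, further in shoot, and its call was lost without shoot PEG 3 h replicate 2 (1.16, adjusted p = 0.058). With the code digit fitted, FER1, FER3 and PHT1;4 all lost their calls, and FER3 had a difference of 0.12.

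Sugar genes of the galactinol, raffinose and trehalose list had 0 higher and 3 lower of 12, beside 10.1% and 6.73% of all genes tested. GOLS3, a cold-linked galactinol synthase, had 0.646, 1.16 and 1.27 CPM in shoot water and 13.5, 21.3 and 15.1 at PEG 3 h, and 6.54, 4.92 and 9.03 CPM in root water and 6.11, 4.88 and 6.94 at PEG 3 h. The shoot rose past a root level whose groups overlapped, and the difference was -4.19 ± 0.83 (adjusted p = 0.0011). The trehalose phosphate synthase family members TPS9 and TPS10 rose in shoot by 1.68 and 1.75, and had differences of -1.51 and -1.67 (adjusted p = 6.5e-05 and 0.0061).

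Of 18 WRKY, ZAT and singlet oxygen reporter genes tested, 4 were higher and 2 lower, beside 10.1% and 6.73% of all genes tested. AAA, annotated as a P-loop nucleoside triphosphate hydrolase and used as a singlet oxygen reporter, had 16.6, 11.3 and 9.54 CPM in root water and 11.8, 14.3 and 10.4 at PEG 3 h, and 4.85, 3.77 and 3.80 CPM in shoot water and 0.385, 0.736 and 0.488 at PEG 3 h. The root groups overlapped and the shoot level fell, and the difference was 2.78 ± 0.57 (adjusted p = 8.0e-04). SIB1, a plastid sigma factor binding protein, had a difference of 2.4 (adjusted p = 0.0044). The zinc finger genes SZF2 and ZAT6 rose in both organs and more in shoot, with differences of -1.24 and -1.78 (adjusted p = 8.5e-05 and 0.00015). BAP1, a membrane-bound cell death inhibitor and singlet oxygen marker, had a difference of 0.20 that was not called (adjusted p = 0.81).

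In the jasmonate list, 1 of 26 was higher and 4 lower, a share near the 16.8% called over all genes. JAZ2, a repressor of jasmonate signalling, rose by 2.65 in root with a shoot response of 0.31 that was not called, and had a difference of 2.33 (adjusted p = 0.0013). AOC2, allene oxide cyclase, rose by 0.94 in shoot, and had -1.50 (adjusted p = 0.0085), a call lost without root water replicate 2 (-1.12, adjusted p = 0.062). Of the lipoxygenases, LOX3 and LOX4 had differences of -0.29 and -0.27 that were not called (adjusted p = 0.75 and 0.82). LOX2 had 1 count in all in root water and 1 at PEG 3 h, so that no root response could be measured.

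P5CS1, the rate-limiting enzyme of proline synthesis, had 39.3, 43.7 and 45.1 CPM in root water and 133, 138 and 71.5 at PEG 3 h, and 8.08, 7.83 and 9.18 CPM in shoot water and 107, 107 and 115 at PEG 3 h. Its shoot rise of 3.71 was larger than its root response of 1.42, but the difference of -2.29 ± 0.80 missed the threshold (adjusted p = 0.059). PRODH1, which breaks proline down, had 0.41 (adjusted p = 0.43). Of 8 proline genes tested, 0 were called for the difference by edgeR's quasi-likelihood test, 1 had an unadjusted p under 0.05 and DESeq2 called 1, P5CS1.

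The remaining lists are given by their counts, beside 10.1% higher and 6.73% lower over all genes tested. Stress NAC factors had 0 higher and 1 lower of 13, with 7 rising in root and 12 in shoot. Wax and cuticle genes had 4 higher and 1 lower of 11, suberin genes 0 higher and 1 lower of 8, and core hypoxia and fermentation genes 1 higher and 0 lower of 14. Root hair genes, of which 11 of 12 fell in root, and root tissue markers had 0 calls of 12 and of 9 by edgeR, with 2 and 0 at an unadjusted p under 0.05, and 0 and 0 by DESeq2. In 10 of the 12 root hair genes at least 1 group held at most 3 counts in all.

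**Figure D4:**
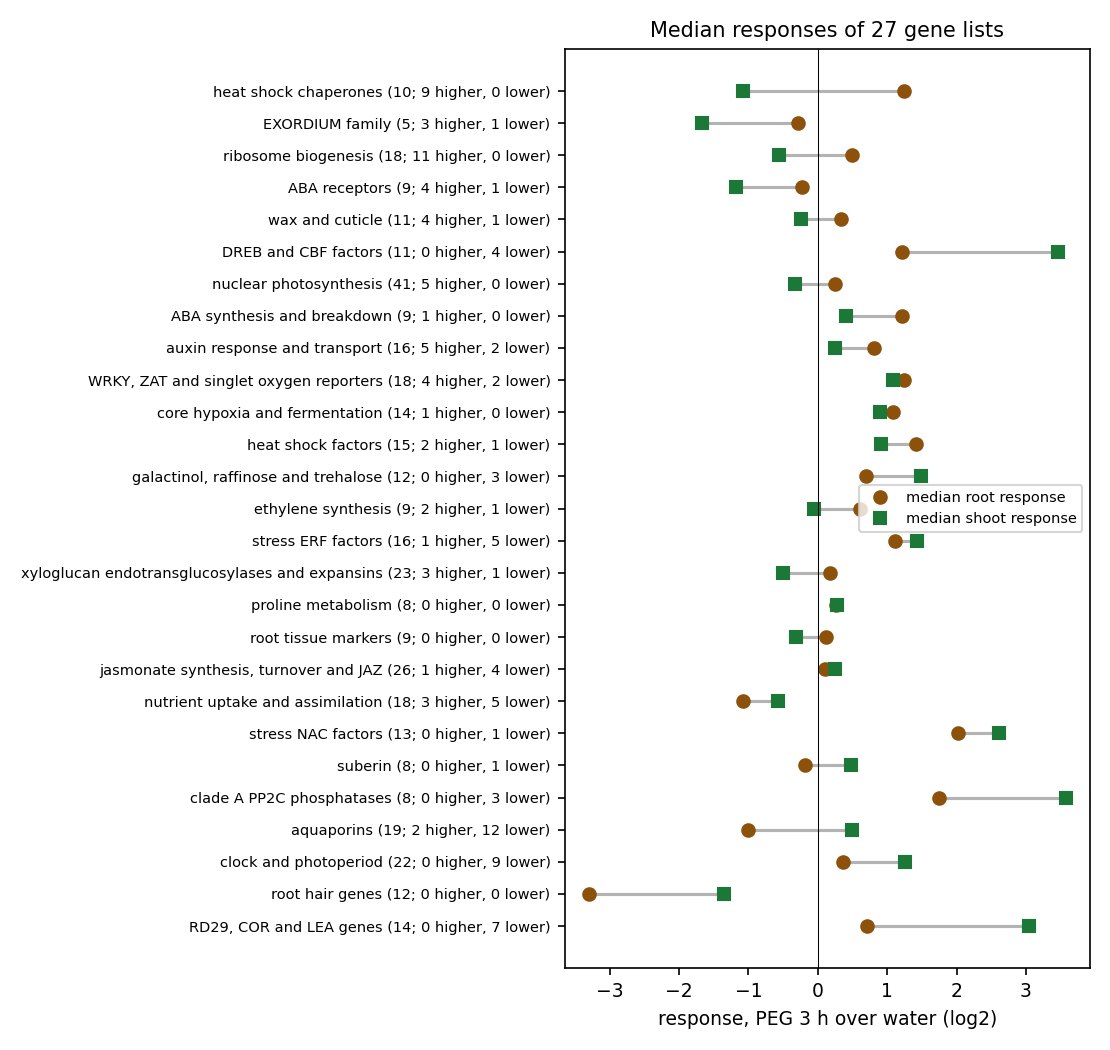
Median root response (circles) and median shoot response (squares) of the tested members of 27 gene lists, PEG 3 h over water on the log2 scale, ordered by the median difference. Brackets give the number tested and the numbers called higher and lower. Heat shock chaperones (1.25 in root, -1.07 in shoot) and aquaporins (-1.01 and 0.50) have medians on opposite sides of 0.

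Outside the lists, the largest lower differences at 10 CPM in both organs included several genes that changed in opposite directions. AT1G11210, annotated with a domain of unknown function, had 113, 108 and 123 CPM in root water and 48.4, 76.9 and 60.9 at PEG 3 h, and 17.8, 17.7 and 19.9 CPM in shoot water and 176, 156 and 174 at PEG 3 h. The order of the organs was reversed with no overlap, and the difference was -4.07 ± 0.27 (adjusted p = 1.2e-12). AT1G51090, annotated as a heavy metal transport family protein, had 93.0, 89.4 and 105 CPM in root water and 20.4, 23.1 and 22.7 at PEG 3 h, and 16.5, 18.0 and 22.8 CPM in shoot water and 90.5, 102 and 91.3 at PEG 3 h.

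The levels of AT1G51090 in the organs were close to exchanged, and its difference was -4.43 ± 0.63 (adjusted p = 0.00014). AT4G25433, a LysM domain gene, and AT4G06536, a SPRY domain gene, also fell in root and rose in shoot, with differences of -4.50 and -4.7 (adjusted p = 1.7e-06 and 0.00013). So did NAC046, a regulator of chlorophyll breakdown, with -3.54 (adjusted p = 2.2e-06). All of these kept their calls under every alternative.

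CT-BMY, the chloroplast beta-amylase that releases maltose from starch, had 55.0, 61.4 and 71.6 CPM in shoot water and 293, 305 and 273 at PEG 3 h, and 109, 92.3 and 58.3 CPM in root water and 44.9, 38.5 and 56.6 at PEG 3 h. The shoot rose with no overlap, the root response of -0.89 was not called (adjusted p = 0.057), and the difference was -3.10 ± 0.48 (adjusted p = 0.00022). CYP81D11, a cytochrome P450, rose by 3.30 in shoot and had -3.20 (adjusted p = 0.0053). AT2G07870, a long non-coding RNA, had 0.470, 34.1 and 17.6 CPM in the root PEG 3 h libraries, and its difference of -5.12 (adjusted p = 0.021) was lost in the fit to the 12 libraries alone (adjusted p = 0.056) and without shoot water replicate 1 or 3 or shoot PEG 3 h replicate 1 (adjusted p = 0.062, 0.064 and 0.055). Its highest adjusted p over the alternatives other than the digit term was 0.091.

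Among the largest higher differences, AT1G75960, an AMP-dependent synthetase family gene, had the lowest adjusted p. It had 2.45, 4.05 and 5.42 CPM in root water and 34.3, 27.8 and 32.5 at PEG 3 h, and 32.6, 34.8 and 40.9 CPM in shoot water and 16.9, 15.2 and 19.0 at PEG 3 h. The root came up to the shoot's water level while the shoot went down, and the difference was 4.04 ± 0.33 (adjusted p = 2.5e-10), kept under every alternative. AT5G38890, an OB-fold protein, AT4G24275, an uncharacterized protein, and AT1G15420, a WD repeat protein, rose in root and fell in shoot with differences of 3.04, 2.73 and 3.35 (adjusted p = 7.0e-06, 3.2e-06 and 3.3e-06). AT5G42150, a glutathione transferase family gene, did so too, with 2.70 (adjusted p = 8.9e-05).

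Others among the largest higher differences varied widely between the root PEG 3 h libraries. RPL23AA, a protein of the large ribosomal subunit, had 17.4, 20.3 and 23.5 CPM in root water and 59.7, 192 and 323 at PEG 3 h, and 383, 222 and 297 CPM in shoot water and 172, 125 and 203 at PEG 3 h. Root replicate 3 stood several times above replicate 1. The difference was 4.08 ± 0.89 (adjusted p = 0.0046), and 3.49 (adjusted p = 0.015) without root PEG 3 h replicate 3. RPS28, of the small subunit, had 9.87, 39.4 and 84.9 CPM at root PEG 3 h against 4.92 to 5.45 in water, with a difference of 3.93 ± 1.15 (adjusted p = 0.027) that was lost in 7 of the 12 fits that left out 1 library, with the highest adjusted p without root PEG 3 h replicate 3 (3.10, adjusted p = 0.093).

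AT5G58420, a ribosomal protein S4 family gene, had 88.8, 202 and 306 CPM at root PEG 3 h, and GAMMA-H2AX, a histone variant that marks broken DNA, 8.69, 15.6 and 26.1. PSBX, a photosystem II subunit, had 5.64, 12.2 and 20.6 CPM there against 2.18 to 4.05 in root water and 4212 to 4580 in shoot water. Their differences were 2.99, 3.36 and 2.88 (adjusted p = 0.0095, 0.0046 and 0.0026). AT3G02900 and PUR5, a purine synthesis enzyme, were likewise lowest in replicate 1 and highest in replicate 3, as was AT3G02120, with differences of 2.90, 3.30 and 2.94 (adjusted p = 0.0032, 0.00014 and 0.00021). These genes were low in root water and higher in shoot water.

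In all, 217 of the 839 higher genes at 10 CPM in both organs had a root water mean under 25% of the shoot water mean. In them the median log2 ratio of root PEG 3 h replicate 3 to replicate 1 was 0.57, and 176 (81.1%) were higher in replicate 3, against -0.03 and 45.6% of all 5682 genes. In the 541 genes with such a low root water mean, called or not, the median was 0.32 and 71.9% were higher in replicate 3. In the other 622 higher genes the median was 0.02 and the share 52.4%. The same ratio between root water replicates was -0.02 in the 217. Root PEG 1 h replicate 2, which does not enter the comparison, also stood high, with 380.7 CPM for RPL23AA and 153.5 for RPS28 against at most 110 and 19.4 in the other 2 libraries of its group. The part of these library differences in the 217 calls was not tested. The ratio was -0.16 in ribosome biogenesis genes, -0.56 in heat shock chaperones and 0.36 in photosynthesis genes. Of the 41 photosynthesis genes 5 were called higher and 0 lower, beside 10.1% and 6.73% of all genes tested. Of the 33 at 10 CPM in both organs, 3 were higher and 0 lower, beside 14.8% and 14% of all such genes.

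Of the 5 photosynthesis calls, PSBX is given above and LHCB5, an antenna protein of photosystem II, had 0.470, 3.94 and 3.47 CPM at root PEG 3 h and 0.516 to 0.868 in root water. Its difference of 2.29 (adjusted p = 0.023) was lost without root PEG 3 h replicate 2 (1.91, adjusted p = 0.10) or 3 (2.09, adjusted p = 0.072), or root water replicate 3 (adjusted p = 0.055). These losses are not all, as the highest adjusted p over the alternatives other than the digit term was 0.14.

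Few of the called genes were near absent from an organ. Of 606 genes under 1 CPM in shoot in water and at PEG 3 h, 13 were called, and of 2845 under 1 CPM in root, 62. Over all genes tested 16.8% were called, and recovery at counts this low was not measured. The NHL domain gene AT5G14895 had 0 counts in the 3 root water libraries and 22, 30 and 47 at PEG 3 h, with 4 and 10 counts in all in shoot (adjusted p = 0.0040). CML41, a calmodulin-like protein, had 117 counts in shoot water and 15 at PEG 3 h, with 0 and 7 in root (adjusted p = 0.0059). AT5G65980, an auxin efflux carrier family gene, had 52 counts in root water and 12 at PEG 3 h, with 1 and 7 in shoot (adjusted p = 0.0043). AT5G55150, AT1G18420 and M10 were also named by rule, and each lost its call when at least 1 of the libraries was left out.

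The same difference at 1 h and 2 h of PEG, against the same water libraries, was called for 1220 (7.89%) and 1161 (7.5%) genes. Shoot PEG 2 h replicate 2 held only 343397 counts, so that 3 counts there came to 8.74 CPM. The 2 h values and calls rest in part on that library. Because the water libraries are shared, values at the 3 times are given side by side and not compared by test. For FKF1 the differences at 1, 2 and 3 h were -2.92, -3.42 and -3.83, and for PIP2;2 -1.35, -1.68 and -2.61. EXO had 3.17, 2.64 and 2.79, and COR47 -1.69, -1.76 and -2.01. HSP90.1 had 1.29, 1.50 and 3.04, of which the 1 h value was not called, FIB2 had 1.02, 1.54 and 2.01, and AT1G75960 2.46, 3.51 and 4.04. For PIP1;1 the 1 h value of -0.54 was not called (adjusted p = 0.074), and for PYL4 neither 0.52 at 1 h nor 1.08 at 2 h was (adjusted p = 0.41 and 0.059). The differences of FKF1, PIP2;2, COR47, EXO, FIB2 and AT1G75960 were called at all 3 times.

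**Figure D5:**
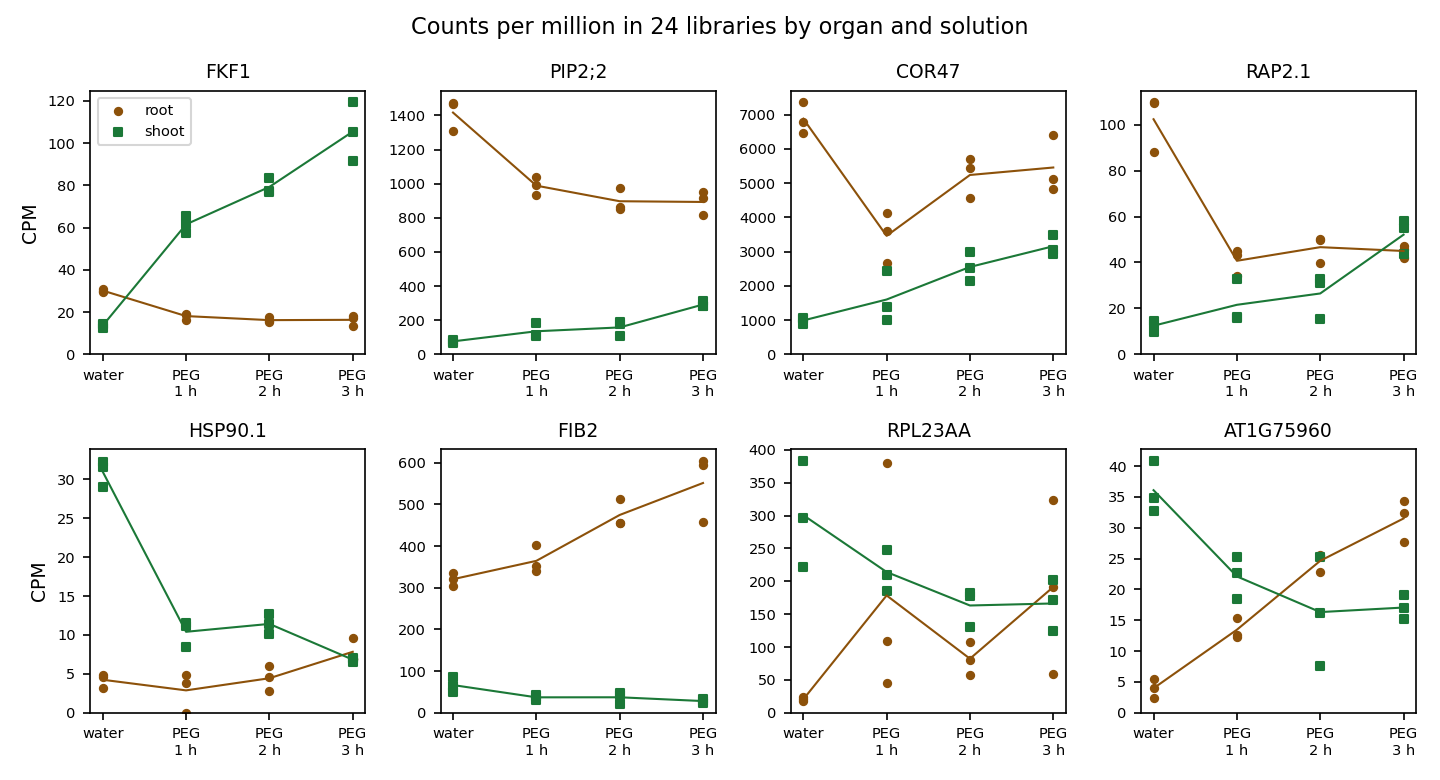
CPM in all 24 libraries for 8 genes by organ and solution, points for libraries and lines through group means, on linear axes from 0. FKF1 rises in shoot from 1 h on, RAP2.1 converges at 3 h, and RPL23AA spreads widely among the root PEG 1 h and PEG 3 h libraries while AT1G75960 does not.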

How the data were processed

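Roots and shoots of seedlings were profiled by MARS-seq. The deposited table holds raw counts per gene, whole numbers with no normalization by the authors that its values show. The submitters' processing notes name bcl2fastq, cutadapt, STAR 2.4.2a, HTSeq and DESeq2. The genome build, strand setting and any collapsing of molecular identifiers are not given in the sources used here.

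Counts of 24 libraries were fitted with edgeR 4.0.16 (R 4.3.3) in 8 group means, with TMM scaling, the default low-count filter and the robust quasi-likelihood test, which left 16 residual degrees of freedom. All groups share 1 estimate of the spread, and shoot PEG 2 h replicate 2, with its 343397 counts, enters it. The difference is the interaction of organ with PEG 3 h against water, and p-values were Benjamini-Hochberg adjusted over 15472 genes with a threshold of 0.05. A level is given in CPM on TMM-scaled library sizes, and an SE is the log2 value over the root of its F. Each group had 3 biological replicates of pooled seedlings. The 12 libraries compared held 2519830 to 5495746 counts (median 3975680), so 3 counts, the limit taken for a gene near 0, came to 0.546 to 1.19 CPM. No replicate pair agreed within sampling noise (chi-square per degree of freedom 2.87 to 10.2).

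In data simulated from this comparison with 15153 genes, 45% of 100 genes changed 2-fold and 97% of 100 genes changed 4-fold were recovered, with 6 false calls. The changed genes were drawn from those with at least 10 CPM in root water and in shoot water, so recovery at lower counts was not measured. The simulated libraries carried no shifts like those between the root PEG 3 h libraries, so the false calls do not cover such shifts. Alternatives were DESeq2 1.42.0, other scalings and filters, the 12 libraries alone, the library code digit or replicate letter as a term, and each library left out.

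Members and gene lists were chosen with earlier results of these data known. By rule, the text names the 12 highest and 12 lowest called differences at 10 CPM in both organs, the 6 largest opposite calls each way, up to 4 members of each of 27 lists by adjusted p, 3 genes each way under 1 CPM in an organ, and 10 fixed genes. Some were left out for length, and genes outside the rule are said to be so or complete a short count. Of 450 list entries 416 were in the table and 394 tested. Gene names and upstream windows came from RefSeq (TAIR10.1), which held 18125 of the 18240 gene IDs.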

Additional observations from a re-analysis of the deposited data

Results flagged for a closer look

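By construction, every called difference is a case in which the organs' responses differ by a test of the difference itself, and there were 2599 of them. In 295 the root and shoot responses were called in opposite directions. The most extreme opposite calls at 10 CPM in both organs, all from edgeR's interaction test, are given as values only. Those that fell in root and rose in shoot were AT4G06536 with a log2 difference of -4.7, AT4G25433 with -4.5, AT1G51090 with -4.43, AT1G11210 with -4.07, FKF1 with -3.83 and NAC046 with -3.54. Those that rose in root and fell in shoot were AT1G75960 with 4.04, AT1G15420 with 3.35, AT5G38890 with 3.04, AT4G24275 with 2.73, AT5G42150 with 2.7 and AT5G66540 with 2.61.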

How the results depend on the processing

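Under the alternatives that neither fitted the digit of the library code nor left out a library, the number of called differences ran from 2085 to 3153, beside 2599. No gene called in both fits changed direction under any alternative run. With library totals in place of TMM, 1882 were higher and 871 lower, a split of 68.36% higher against 59.95%. The median difference of all genes ran from 0.048 to 0.31. When the digit of the library code was fitted, 427 differences were called (209 higher, 218 lower), 714 root responses, 2323 shoot responses and 20 opposite calls. Of the 427, 367 were shared with the 2599. That term rests on root PEG 1 h and shoot PEG 2 h, the groups whose libraries carry different digits, so it is estimated from few libraries. Among them are root PEG 1 h replicate 2, which stood high for RPL23AA and RPS28, and shoot PEG 2 h replicate 2, with 343397 counts. The cause was not tested. At 10 CPM in both organs, fewer genes were tested and 2583 root responses were called.

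Leaving out 1 library gave 2026 to 2697 called differences, 1169 to 1679 higher and 620 to 1081 lower, counting shoot PEG 2 h replicate 2, which was left out after the data were seen. The lower count fell to 639 without shoot water replicate 3 and to 643, 637 and 620 without root water replicates 1, 2 and 3. The opposite calls ranged from 187 to 312, lowest without shoot water replicate 1. Of 101 called genes named and followed through the alternatives, 83 kept their call under every alternative other than the digit term, and 41 kept it under that term. PIP2;3, ELF3, PRR5, CDF3 and BOA were also named and called but are not among the 101.

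The labels do not say whether a replicate letter marks a pool of seedlings shared by root and shoot. Roots and shoots were separated after the treatment, so libraries of the same treatment and letter may share a pool. Same-letter correlations were -0.14 to 0.14 between organs and -0.04 to 0.27 between water and PEG. In these comparisons, 7 of 12 and 6 of 12 samples correlated best with their own letter. These values, from 3 libraries in each group, cannot decide whether the organs were paired. The main test did not treat the letters as pairs, and its calls rest on that choice. With the letter as a replicate block, 2462 differences were called, and with a block by pool of seedlings 2131, beside 2599 without a block. Of the same 101 genes, 98 kept their call with the former and 90 with the latter, which lost 11.

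Among the named genes followed through the alternatives, reversals were of uncalled values or came with the digit term. NCED3 was -0.017 with TMM within each organ, -0.76 with the digit, -0.023 with the block by pool and -0.30 to 0.31 with libraries left out. LOX2 was -0.024 by DESeq2, -2.97 with the digit and -1.41 to 1.98 with libraries left out. LOX3, LOX4 and BAP1 ran from -0.59 to 0.12, -0.79 to 0.20 and -0.18 to 0.57 with libraries left out. With the digit, LHCB5 was -1.07 and DREB2A -0.105. Low counts limit what could be seen for LHCB5 in the root, for root hair genes in the shoot and for most chaperones. At 10 CPM in both organs were 2 of 10 chaperones and 0 of 12 root hair genes, beside 33 of 41 photosynthesis genes.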
